A study of Mus musculus with 9 samples.

Results

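This comparison set mouse brain tissue from the injured site of animals treated with C-β-LG/DSF, a nanoparticle preparation by the study's title, against the matching site of Sham animals, and it covered 13884 of the 22482 genes in the deposited table. A gene was included when 3 or more of the 6 libraries reached an FPKM (fragments counted per unit of transcript length and of library total) of 0.5, and all differences were taken on the log2(FPKM + 0.5) scale, C-β-LG/DSF minus Sham. In the C-β-LG/DSF group (3 libraries) a falling weight had caused a traumatic brain injury and C-β-LG/DSF was then given through a tail vein. In the Sham group (3 libraries) the skull was drilled and the dura opened, with the brain left undamaged. A group with the same injury and no C-β-LG/DSF (TBI, 3 libraries) did not enter the main fit. It was used for values set beside those of the other groups and in fits of all 9 libraries. The labels do not spell out the components of C-β-LG/DSF, and the sources used here give no strain, age, dose or interval between injury and sampling. The C-β-LG/DSF and Sham groups differed in the injury, the injection and the preparation together, so the parts of these in a difference cannot be told apart. No label states that each library had its own animal, and the p-values therefore reflect the spread over these 6 samples alone, which may be technical.

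The stated interest of the study was in pyroptosis and inflammation. Pyroptosis is an inflammatory form of cell death in which a sensor such as NLRP3, the adaptor ASC (Pycard) and caspase-1 form an inflammasome, caspase-1 cleaves gasdermin D, and the freed end of gasdermin D opens pores in the membrane. The same caspase matures the cytokines interleukin-1β and interleukin-18. In injured brain, microglia and infiltrating macrophages take up debris and release chemokines and complement, astrocytes enlarge and produce more intermediate filament, and neurons lose synapses or die.

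The tissue carried the defining markers of brain in both groups. The synaptic gene Snap25 stood at 820.02, 718 and 751 FPKM in C-β-LG/DSF and 1469, 1322 and 1306 FPKM in Sham. Levels of the microglial receptor gene P2ry12 were 36.9, 31.5 and 33.1 FPKM in C-β-LG/DSF and 23.1, 31.4 and 22.1 FPKM in Sham, and those of the endothelial junction gene Cldn5 were 46.7, 54.4 and 44.98 FPKM in C-β-LG/DSF and 39.5, 39.7 and 27.2 FPKM in Sham. The muscle creatine kinase gene Ckm was at 0, 0 and 0.555 FPKM in C-β-LG/DSF and 0.0594, 0 and 0.124 FPKM in Sham. Library values are given in the order 1, 2, 3 throughout. FPKM totals were 406274 to 415823 in the C-β-LG/DSF libraries and 431695 to 445404 in the Sham libraries, and 13040 to 13149 genes, against 12566 to 12666, had an FPKM of 1 or more. Across genes, Pearson's r of the log2 values was 0.978 to 0.987 within C-β-LG/DSF, 0.989 within Sham and 0.957 to 0.967 between the groups. These genes do not count as independent observations. Along the first principal component (64.7% of the variance) the C-β-LG/DSF libraries lay at 24.2, 29.2 and 34.1 and the Sham libraries at -31.3, -26.8 and -29.4. The second (13.6%) separated C-β-LG/DSF 1 (24.0) from C-β-LG/DSF 2 (-21.5). Read numbers per library were not used here.

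Of the 13884 genes, limma called 3412 (24.6%) at a Benjamini-Hochberg adjusted p under 0.05. These were 1762 higher in C-β-LG/DSF (12.7% of all genes tested) and 1650 lower (11.9%), and the median difference of all genes was 0.0023. The counts of each list below are to be set against these shares. Rescaling every library to the same FPKM total moved that median to 0.088 and the split to 2482 higher and 1163 lower. Differences of at least 2-fold were less evenly split, with 532 higher (3.83%) and 200 lower (1.44%). Of the 13884 genes, 181 passed the filter through the C-β-LG/DSF libraries only and so had to differ, and 152 of these were called. With any C-β-LG/DSF library left out these 181 no longer passed the filter. Their absence from the counts of such fits, here and in the lists below, was therefore fixed in advance. The count of 3412 became 1619 without C-β-LG/DSF 3, 2123 without Sham 1 and 2117 without Sham 3. The libraries of the groups did not overlap in 5971 genes (43.0%). Among the 3412 called genes this held for 3399, so that overlap is mentioned below only where there was some. By the authors' own intervals around each value, all C-β-LG/DSF intervals lay above all Sham intervals in 22 genes and below them in 13.

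**Figure D1:**
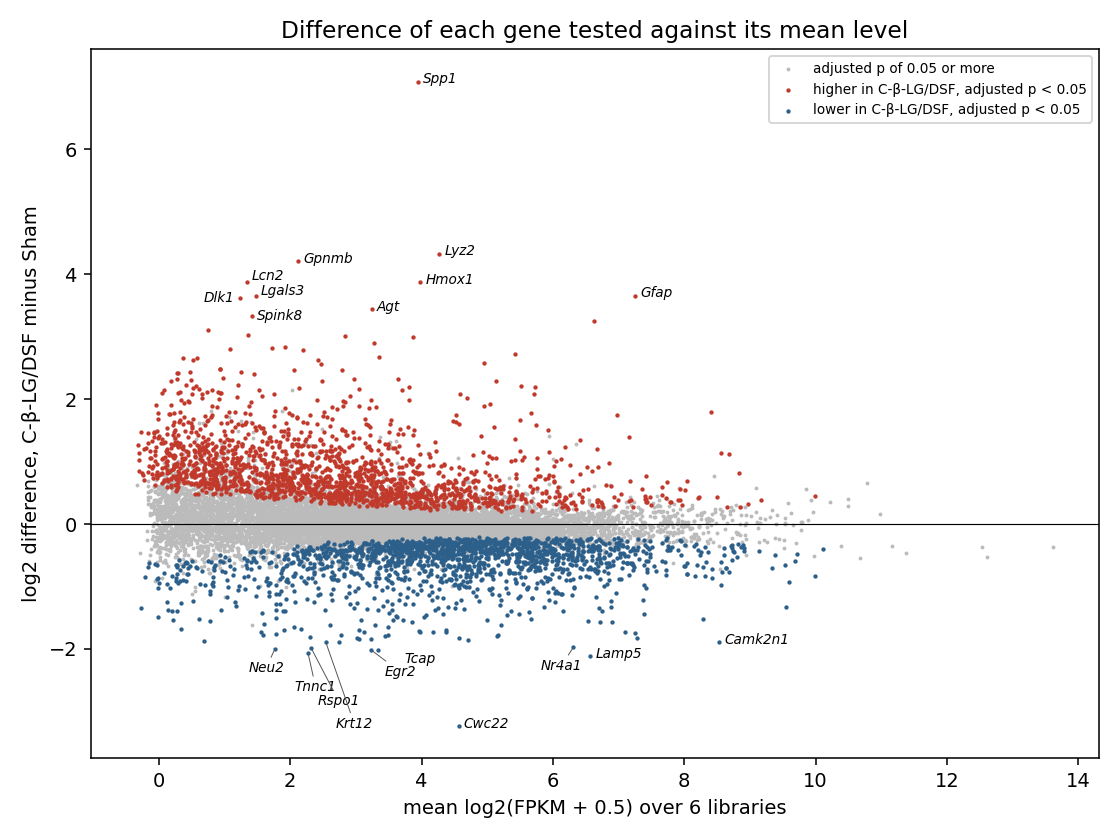
Each point is a gene tested; the horizontal axis is its mean log2(FPKM + 0.5) over the 6 libraries and the vertical axis the log2 difference, C-β-LG/DSF minus Sham. Red points (1762) were higher and blue points (1650) lower in C-β-LG/DSF at an adjusted p under 0.05, grey points were not called, and the labelled genes are the 10 with the largest difference in each direction under the rule for named genes. Increases reached 7.08 (Spp1), while the largest decrease was -3.24 (Cwc22).

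The largest increase was in Spp1, and Lyz2 and Gfap were among the 10 largest. Spp1 (ENSMUSG00000029304.14, chromosome 5, 104435118 to 104441050) encodes osteopontin, a secreted matrix protein of activated phagocytes, and was at 301, 73.5 and 254 FPKM in C-β-LG/DSF and 0.509, 2.15 and 0.356 FPKM in Sham. All C-β-LG/DSF libraries were above all Sham libraries, with C-β-LG/DSF 2 the lowest of its group. The means were 209.5 ± 120.1 FPKM in C-β-LG/DSF and 1.01 ± 0.997 FPKM in Sham (SD, n = 3 each), a log2 difference of 7.08 (SE 0.59, adjusted p = 0.000652) in limma. Lyz2, the lysozyme of myeloid cells, had 105, 53.9 and 112 FPKM in C-β-LG/DSF and 3.29, 4.41 and 3.74 FPKM in Sham. Its difference was 4.33 (SE 0.26, adjusted p = 0.000220) in limma, again with C-β-LG/DSF 2 lowest. Gfap, the intermediate filament protein of astrocytes, had 656, 377 and 629.7 FPKM in C-β-LG/DSF and 44.7, 42.3 and 39.8 FPKM in Sham, and its difference was 3.66 (SE 0.20, adjusted p = 0.000174) in limma. No overlap between the groups was a condition for naming these genes and is not a result.

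The order of the libraries was not the same for all of the 10 genes. Gpnmb, a membrane glycoprotein of phagocytes, had 29.8, 5.29 and 36.4 FPKM in C-β-LG/DSF and 0.527, 0.576 and 0.438 FPKM in Sham. Hmox1, the heme-degrading enzyme, had 84.9, 21.9 and 114 FPKM in C-β-LG/DSF and 3.46, 3.63 and 3.802 FPKM in Sham, and the galectin gene Lgals3 had 14.998, 3.35 and 15.7 FPKM in C-β-LG/DSF and 0.203, 0.3597 and 0.296 FPKM in Sham. Within C-β-LG/DSF these 3 genes were lowest in library 2. The lipocalin gene Lcn2 was highest there, at 5.66, 20.1 and 6.71 FPKM in C-β-LG/DSF and 0.178, 0.349 and 0 FPKM in Sham. Dlk1, which encodes a membrane protein related to Notch ligands, had 2.43, 12.3 and 14.3 FPKM in C-β-LG/DSF and 0.225, 0.0512 and 0.255 FPKM in Sham, and Agt, the angiotensinogen gene, had 10.5, 56.99 and 47.4 FPKM in C-β-LG/DSF and 1.69, 3.27 and 2.38 FPKM in Sham. Both of these were lowest in C-β-LG/DSF 1. Spink8 encodes a protease inhibitor, marks pyramidal cells of the hippocampus in mice and had 8.96, 5.54 and 10.1 FPKM in C-β-LG/DSF and 0.151, 0.352 and 0.569 FPKM in Sham. The log2 differences of these 7 genes were 4.202 (SE 0.62), 3.87 (SE 0.53), 3.66 (SE 0.51), 3.88 (SE 0.44), 3.61 (SE 0.56), 3.44 (SE 0.57) and 3.33 (SE 0.26) in that order, and the highest adjusted p among them was 0.00553, for Agt. Lcn2, Lgals3 and Dlk1 passed the filter through the C-β-LG/DSF libraries only.

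The largest decrease was in Cwc22 (ENSMUSG00000027014.14, chromosome 2, 77881159 to 77946375), which encodes a splicing factor of the spliceosome. It had 25.2, 3.97 and 3.48 FPKM in C-β-LG/DSF and 49.9, 82.8 and 90.6 FPKM in Sham, so C-β-LG/DSF 1 lay much nearer to Sham than the other C-β-LG/DSF libraries did. The difference was -3.24 (SE 0.66, adjusted p = 0.0116) in limma. Lamp5, a lysosome-associated membrane protein of cortical neurons, had 63.99, 31.9 and 44.7 FPKM in C-β-LG/DSF and 200.03, 209 and 183 FPKM in Sham, a difference of -2.12 (SE 0.22, adjusted p = 0.00113) in limma. Rspo1, a secreted enhancer of Wnt signalling, had 2.33, 1.72 and 1.999 FPKM in C-β-LG/DSF and 8.92, 9.89 and 9.39 FPKM in Sham and differed by -1.98 (SE 0.12, adjusted p = 0.000220) in limma. Its libraries were close together within each group. Camk2n1, an inhibitor of the calcium-dependent kinase CaMKII, had 231, 182 and 163 FPKM in C-β-LG/DSF and 684, 841 and 623 FPKM in Sham (log2 difference -1.896, SE 0.16).

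Among the other large decreases were the activity-induced transcription factor genes Egr2 (-2.02) and Nr4a1 (-1.97), the sarcomere genes Tnnc1 (-2.06) and Tcap (-2.01), the sialidase gene Neu2 (-2.01) and the keratin gene Krt12. Nr4a1 stood at 53.5, 27.5 and 42.1 FPKM in C-β-LG/DSF and 175, 145 and 152 FPKM in Sham. For Krt12 the libraries were at 6.33, 1.06 and 2.08 FPKM in C-β-LG/DSF and 8.61, 12.8 and 11.2 FPKM in Sham, and its call (log2 difference -1.895, SE 0.47, adjusted p = 0.0242 in limma) ended without C-β-LG/DSF 3 (-1.78, adjusted p = 0.0886), Sham 1 (-2.05, adjusted p = 0.0556), Sham 2 (-1.78, adjusted p = 0.0740) or Sham 3 (-1.86, adjusted p = 0.0726). The Tnnc1 values were 1.33, 2.13 and 2.23 FPKM in C-β-LG/DSF and 4.39, 12.3 and 14.8 FPKM in Sham, with Sham 1 the lowest of its group. Other sarcomere genes were at low levels in both groups: Acta1 had 2.48, 2.35 and 3.28 FPKM in C-β-LG/DSF and 2.98, 5.36 and 5.18 FPKM in Sham and overlapped between the groups.

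**Figure D2:**
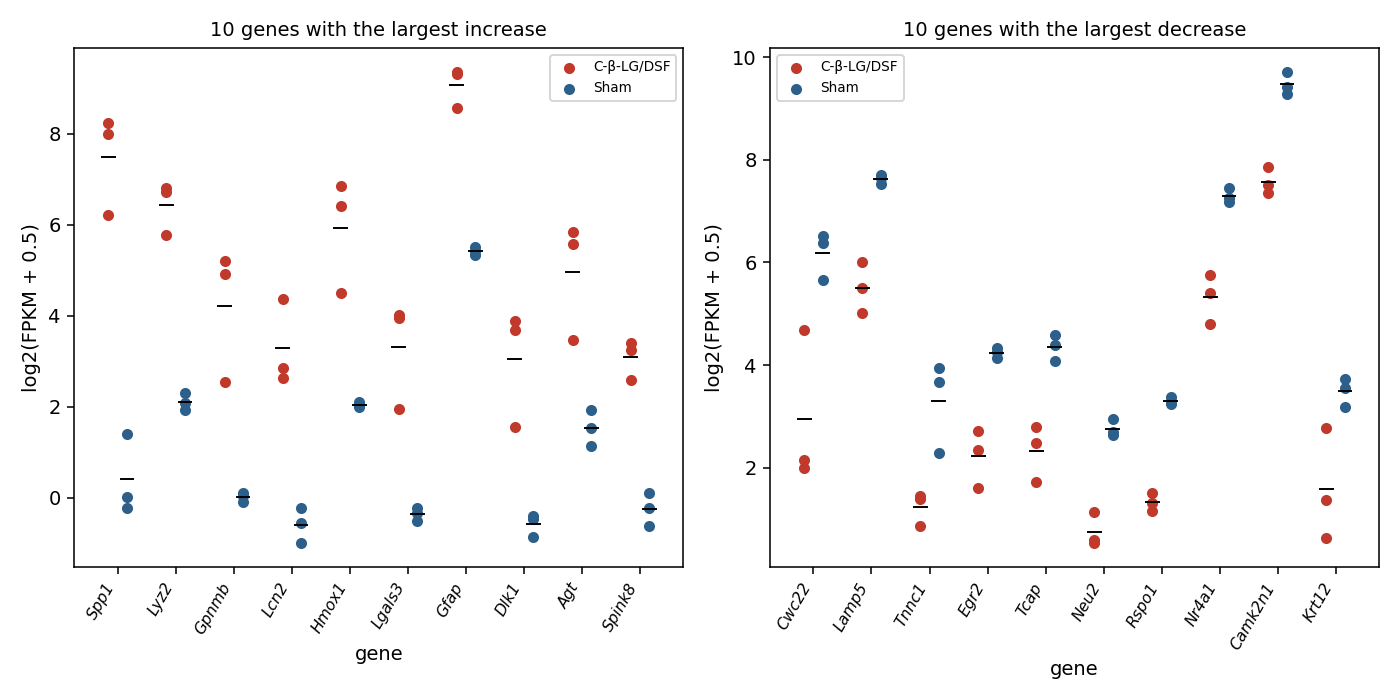
Levels in each library, as log2(FPKM + 0.5), of the 10 genes with the largest increase (left) and the 10 with the largest decrease (right) in C-β-LG/DSF against Sham. Red points are C-β-LG/DSF libraries, blue points Sham libraries and black lines group means (n = 3 each). The red points spread more widely than the blue ones in Gpnmb, Lgals3, Hmox1, Dlk1 and Cwc22, where 1 of the C-β-LG/DSF libraries lay nearer to Sham.

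Microglial and macrophage genes were higher in C-β-LG/DSF. Of 26 tested genes typical of phagocytic microglia, 21 were called higher and 0 lower, set against 12.7% of all genes called higher, and the median difference was 1.51 against 0.0023 over all genes. Among the 26, 5 were tested through the C-β-LG/DSF libraries only, and 16 of the 21 were not of that kind. Cd52, a small surface glycoprotein of leukocytes, had 10.8, 10.6 and 17.99 FPKM in C-β-LG/DSF and 2.13, 1.35 and 1.55 FPKM in Sham, a difference of 2.62 (SE 0.22, adjusted p = 0.000657) in limma. Cst7, an inhibitor of lysosomal proteases, had 2.97, 2.87 and 4.02 FPKM in C-β-LG/DSF and 0.337, 0 and 0 FPKM in Sham. It was listed at 0 in Sham 2 and Sham 3. Fabp5, a fatty acid carrier, was among the 5 that did not pass (-0.11, adjusted p = 0.537) and is named after its value was seen.

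Of 20 genes of homeostatic microglia, 14 were called higher and 0 lower, with a median of 0.95; without C-β-LG/DSF 3 the count was 9. Tmem119, a membrane protein of resident microglia, had 20.7, 24.4 and 24.99 FPKM in C-β-LG/DSF and 11.4, 13.7 and 11.2 FPKM in Sham, a difference of 0.92 (SE 0.11, adjusted p = 0.00175) in limma. Spi1, which encodes the myeloid transcription factor PU.1, had 8.899, 5.62 and 8.57 FPKM in C-β-LG/DSF and 1.55, 2.904 and 2.05 FPKM in Sham (log2 difference 1.63, SE 0.23, adjusted p = 0.00301 in limma). Olfml3 (log2 difference 1.17, SE 0.14) and the adhesion receptor gene Adgrg1 (log2 difference 0.98, SE 0.14) also rose. The mean of each of these lists was smallest in C-β-LG/DSF 2 of its group: relative to Sham, the homeostatic list averaged 0.9997, 0.57 and 1.07 on the log2 scale in C-β-LG/DSF 1, 2 and 3, and the phagocytic list 2.09, 1.41 and 2.25. In bulk tissue, more cells of a type and more RNA per cell cannot be told apart.

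Markers of monocytes and macrophages, neutrophils and lymphocytes differed by type. Whether their RNA came from blood-borne or resident cells was not tested. Of 20 genes of monocytes and macrophages, 13 were called higher and 0 lower (median 1.11), 4 of the 20 tested through C-β-LG/DSF only and 10 of the 13 not of that kind. The count was 7 without C-β-LG/DSF 1, 6 without C-β-LG/DSF 3, 8 without Sham 1 and 8 without Sham 3. Adgre1, which encodes the macrophage antigen F4/80, had 9.34, 5.702 and 8.66 FPKM in C-β-LG/DSF and 2.09, 2.94 and 2.43 FPKM in Sham (log2 difference 1.47, SE 0.19, adjusted p = 0.00239 in limma). Cd44, a hyaluronan receptor, had 5.42, 2.55 and 4.92 FPKM in C-β-LG/DSF and 0.964, 0.785 and 0.775 FPKM in Sham (log2 difference 1.78, SE 0.25, adjusted p = 0.00291 in limma). The listed genes Ccr2, Lyz1, Chil3, F10 and Arg1 did not pass the filter. Ccr2 was at 0.304, 0.440 and 0.550 FPKM in C-β-LG/DSF and 0.0448, 0.0634 and 0.0330 FPKM in Sham. Of 15 neutrophil genes 4 were tested. Csf3r, the receptor of granulocyte colony-stimulating factor, rose by 1.52 (SE 0.12), and by 1.60 without C-β-LG/DSF 2. Lcn2 rose as above. The neutrophil genes called higher were 2 without C-β-LG/DSF 1 and 1 without C-β-LG/DSF 2 or C-β-LG/DSF 3. Lcn2 was tested through the C-β-LG/DSF libraries only and is also counted among the genes of reactive astrocytes. S100a9, a calcium-binding protein of neutrophils, had 0.554, 15.01 and 2.79 FPKM in C-β-LG/DSF and 0.7701, 0.425 and 0.812 FPKM in Sham, with C-β-LG/DSF 2 far above the other 5 libraries, and was not called (adjusted p = 0.172). Without C-β-LG/DSF 1 it was called (log2 difference 2.63, adjusted p = 0.0183 in limma). S100a8 did not pass the filter, at 0, 10.2 and 1.95 FPKM in C-β-LG/DSF and 0.450, 0.291 and 0 FPKM in Sham. The summed FPKM of all 15 genes was 13.8, 60.2 and 22.3 in C-β-LG/DSF 1, 2 and 3 and 4.01 to 5.04 in Sham. Of 19 lymphocyte genes only Trac (0.84, adjusted p = 0.115) and Lck (0.13, adjusted p = 0.592) were tested, and neither was called. The summed FPKM of all 19 was 3.47 to 5.16 in C-β-LG/DSF and 1.86 to 3.10 in Sham.

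Genes for the uptake and digestion of debris were higher as well. The phagocytic microglia list above also holds cathepsin genes such as Ctsb and Ctsd. Its counts and those of lysosomes and cathepsins below are therefore not separate results. The complement list had 12 of 21 tested genes called higher and 0 lower (median 0.98), of which 10 of the 12 were not tested through C-β-LG/DSF alone. C4b (ENSMUSG00000073418.4, chromosome 17, 34728380 to 34743882), a central protein of the classical pathway, had 26.2, 22.8 and 28.7 FPKM in C-β-LG/DSF and 3.39, 3.02 and 2.72 FPKM in Sham, a difference of 2.895 (SE 0.12, adjusted p = 0.000164) in limma, the smallest p of all genes. The subunits of C1q, which starts that pathway, also rose. C1qa had 97.7, 91.8 and 119.6 FPKM in C-β-LG/DSF and 32.3, 39.6 and 35.6 FPKM in Sham (log2 difference 1.51, SE 0.12), C1qb had 107, 86.3 and 135 FPKM in C-β-LG/DSF and 23.4, 24.6 and 27.4 FPKM in Sham (log2 difference 2.08, SE 0.15) and C1qc had 116, 87.1 and 143 FPKM in C-β-LG/DSF and 24.8, 24.1 and 23.8 FPKM in Sham (log2 difference 2.198, SE 0.16). In each of the 3 subunit genes C-β-LG/DSF 3 was the highest library. Of 9 Fc receptor genes, whose products bind antibody-coated material, 6 were called higher and 0 lower (median 1.35), and 5 of the 6 were not tested through C-β-LG/DSF alone. Fcgr3 had 15.01, 16.1 and 19.9 FPKM in C-β-LG/DSF and 4.68, 4.06 and 4.24 FPKM in Sham (log2 difference 1.85, SE 0.12, adjusted p = 0.000295 in limma), and Fcgr4 was listed at 0 in all Sham libraries, against 1.49, 1.31 and 1.35 FPKM in the C-β-LG/DSF libraries.

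Of 30 genes of lysosomes and cathepsins, 20 were called higher and 0 lower (median 0.78). Ctsh, a cathepsin, had 20.7, 17.6 and 20.3 FPKM in C-β-LG/DSF and 5.35, 7.83 and 5.28 FPKM in Sham (log2 difference 1.61, SE 0.15, adjusted p = 0.000911 in limma). The acid glucosidase gene Gaa had 137, 155 and 132 FPKM in C-β-LG/DSF and 81.6, 77.6 and 66.7 FPKM in Sham (log2 difference 0.91, SE 0.10). Man2b1 (log2 difference 0.94, SE 0.08), a lysosomal mannosidase, and Npc2 (log2 difference 0.88, SE 0.10), which carries cholesterol out of lysosomes, rose as well. Of 14 genes of cholesterol efflux and storage 8 were called higher and 2, Cyp46a1 (-0.52) and Nceh1 (-0.28), lower (median 0.51). Neither of the 2 was called lower without C-β-LG/DSF 3, and 1 gene of the list was without Sham 1 or Sham 3. Among the 8 higher was the exporter gene Abca1, at 8.22, 7.31 and 9.397 FPKM in C-β-LG/DSF and 2.96, 3.74 and 3.62 FPKM in Sham (log2 difference 1.16, SE 0.13, adjusted p = 0.00142 in limma). Cholesterol synthesis and uptake genes had 0 of 19 called in either direction by limma (median 0.02), with Sqle nearest to passing (0.295, adjusted p = 0.0551). Without Sham 3, 2 of the 19 were called higher. The phagocyte NADPH oxidase, which makes superoxide, had 6 of 7 tested genes called higher and 0 lower (median 1.37), 2 of the 7 tested through C-β-LG/DSF only and 4 of the 6 not of that kind. Cyba, its membrane subunit, had 30.6, 19.99 and 31.7 FPKM in C-β-LG/DSF and 5.15, 6.14 and 5.84 FPKM in Sham (log2 difference 2.14, SE 0.17, adjusted p = 0.000622 in limma). The GTPase gene Rac2 had 4.17, 2.55 and 4.64 FPKM in C-β-LG/DSF and 0.619, 0.724 and 0.772 FPKM in Sham (log2 difference 1.798, SE 0.21).

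Secreted signals of inflammation were mostly low, and many were not testable. Of 19 cytokine genes 9 were tested, 4 of which were called higher and 0 lower (median 0.73). Il16, a chemoattractant cytokine of leukocytes, had 5.84, 4.63 and 4.74 FPKM in C-β-LG/DSF and 0.457, 0.584 and 0.544 FPKM in Sham, a difference of 2.43 (SE 0.14, adjusted p = 0.000219) in limma with little spread in either group. The growth factor genes Tgfb1 (8.65, 6.06 and 8.67 FPKM in C-β-LG/DSF and 3.19, 3.63 and 2.72 FPKM in Sham; log2 difference 1.16, SE 0.16), Csf1 (log2 difference 0.74, SE 0.11) and Tgfb2 (log2 difference 0.88, SE 0.15) rose too. The acute cytokine genes Il1b, Il6 and Tnf did not pass the filter. Il6 was listed at 0 in all C-β-LG/DSF libraries and at 0.0257 FPKM or less in the Sham libraries, and Tnf was at 0.206, 0.212 and 0.124 FPKM in C-β-LG/DSF and 0, 0.0518 and 0.0997 FPKM in Sham.

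Of 22 chemokine genes 13 were tested, with 8 called higher and 2 lower, and 5 of the 13 were tested through the C-β-LG/DSF libraries only, with 3 of the 8 not of that kind. Without C-β-LG/DSF 1 or C-β-LG/DSF 3 the count of 8 became 3, and without C-β-LG/DSF 2 it became 4, since some of these genes then no longer passed the filter. Ccl3 and Ccl4 attract monocytes and were listed at 0 in Sham 2 and Sham 3. Ccl3 had 1.94, 1.78 and 2.68 FPKM in C-β-LG/DSF and 0.377, 0 and 0 FPKM in Sham, and Ccl4 had 1.87, 1.59 and 1.66 FPKM in C-β-LG/DSF and 0.321, 0 and 0 FPKM in Sham. Ccl8 was listed at 0 in all Sham libraries and at 0.654, 0.8801 and 1.15 FPKM in C-β-LG/DSF. Ccl12, a ligand of CCR2 in mice, had 1.66, 2.71 and 1.63 FPKM in C-β-LG/DSF and 0.569, 0.481 and 0.458 FPKM in Sham (log2 difference 1.29, SE 0.20, adjusted p = 0.00397 in limma). The 2 lower ones, chosen after their values were seen, were Cx3cl1 (259, 182 and 199 FPKM in C-β-LG/DSF and 304, 327 and 350.1 FPKM in Sham; log2 difference -0.63, SE 0.14), a neuronal ligand of microglia, and Cxcl14 (log2 difference -0.45, SE 0.10), with 1 lower without C-β-LG/DSF 3 or Sham 3. Among 6 tested chemokine receptors 3 were called higher and 0 lower. Cxcr4 had 3.82, 3.399 and 5.32 FPKM in C-β-LG/DSF and 0.703, 0.568 and 0.611 FPKM in Sham (log2 difference 2.03, SE 0.18, adjusted p = 0.000685 in limma).

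Genes of Toll-like receptors and MHC class II were higher in part. In the list of Toll-like receptors and NF-kB 9 of 28 tested genes were called higher and 0 lower (median 0.32), 3 of the 28 tested through C-β-LG/DSF only and 6 of the 9 not of that kind. The count was 4 without C-β-LG/DSF 1 or C-β-LG/DSF 3 and 5 without Sham 3. Cd14, a co-receptor for lipopolysaccharide, had 9.42, 8.703 and 9.77 FPKM in C-β-LG/DSF and 1.38, 1.901 and 0.718 FPKM in Sham (log2 difference 2.47, SE 0.23, adjusted p = 0.000877 in limma). Tlr2, a receptor for bacterial lipopeptides, had 2.66, 2.07 and 4.15 FPKM in C-β-LG/DSF and 0.438, 0.339 and 0.454 FPKM in Sham. Of 8 tested MHC class II genes 6 were called higher and 0 lower (median 1.13), 5 of the 6 not tested through C-β-LG/DSF alone, with 3 without C-β-LG/DSF 1 and 2 without C-β-LG/DSF 3. Cd86, a costimulator of T cells, had 2.21, 1.68 and 1.99 FPKM in C-β-LG/DSF and 0.552, 0.552 and 0.5597 FPKM in Sham (log2 difference 1.22, SE 0.15, adjusted p = 0.00184 in limma). Of 14 MHC class I genes 4 were called higher and 0 lower (median 0.62), with 1 without C-β-LG/DSF 3 and 7 without C-β-LG/DSF 2. B2m, the light chain of class I molecules, had 126, 108 and 144 FPKM in C-β-LG/DSF and 59.2, 70.99 and 68.1 FPKM in Sham (log2 difference 0.92, SE 0.12, adjusted p = 0.00213 in limma). The interferon response list had 4 of 27 called higher, a share near the 12.7% of all genes (median 0.40), with 2 without C-β-LG/DSF 3 or Sham 1. Ifi27l2a, an interferon-induced gene, had 32.8, 11.8 and 20.1 FPKM in C-β-LG/DSF and 1.31, 1.61 and 3.695 FPKM in Sham (log2 difference 3.01, SE 0.41, adjusted p = 0.00267 in limma).

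Part of the pyroptosis genes were higher in C-β-LG/DSF tissue than in Sham. Of 28 listed genes 15 were tested, 6 were called higher (set against 12.7% of all genes) and 0 lower, and the median difference was 0.61 against 0.0023 over all genes. None of the 15 was tested through C-β-LG/DSF alone. The mean of the list relative to Sham was 0.54, 0.45 and 0.56 in C-β-LG/DSF 1, 2 and 3, so these libraries differed little. Beside it, the mean of the phagocytic microglia list was 2.09, 1.41 and 2.25 and that of homeostatic microglia 0.9997, 0.57 and 1.07, and their part in the result was not tested. With any single library left out, 3 or 4 genes of the list were called.

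Gasdermin D is encoded by Gsdmd (ENSMUSG00000022575.4, chromosome 15, 75862339 to 75867404), which had 3.33, 2.99 and 3.401 FPKM in C-β-LG/DSF and 1.21, 1.26 and 1.096 FPKM in Sham. The groups were far apart relative to their spread, at 3.24 ± 0.217 FPKM in C-β-LG/DSF and 1.19 ± 0.0825 FPKM in Sham (SD, n = 3 each), a log2 difference of 1.15 (SE 0.12), 95% interval 0.86 to 1.43, adjusted p = 0.00127 in limma. By the authors' intervals the groups overlapped: these ran from 0.386 to 6.27, 0.295 to 5.69 and 0.319 to 6.48 FPKM in the C-β-LG/DSF libraries and from 0 to between 2.63 and 2.72 FPKM in the Sham libraries. Ninj1 (ENSMUSG00000037966.15, chromosome 13, 49187485 to 49196244), whose product ruptures the membrane of dying cells, had 19.3, 19.1 and 20.8 FPKM in C-β-LG/DSF and 12.04, 12.8 and 11.4 FPKM in Sham, a difference of 0.68 (SE 0.08, adjusted p = 0.00157) in limma. Both calls held in all 15 alternatives tried.

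Casp1 (ENSMUSG00000025888.5, chromosome 9, 5298517 to 5307265), the inflammasome protease, had 2.17, 1.84 and 2.38 FPKM in C-β-LG/DSF and 1.34, 1.004 and 1.31 FPKM in Sham. All C-β-LG/DSF libraries were above all Sham libraries, and the difference was 0.61 (SE 0.15, adjusted p = 0.0243) in limma. It was not called without C-β-LG/DSF 3 (0.54, adjusted p = 0.102), Sham 1 (0.67, adjusted p = 0.0510), Sham 2 (0.52, adjusted p = 0.0724) or Sham 3 (0.65, adjusted p = 0.0562). P2rx7, an ATP-gated channel that triggers NLRP3, had 4.75, 4.34 and 3.04 FPKM in C-β-LG/DSF and 2.84, 2.19 and 1.88 FPKM in Sham (log2 difference 0.69, SE 0.19, adjusted p = 0.0355 in limma). Gbp2, an interferon-induced GTPase, had 2.37, 1.83 and 1.93 FPKM in C-β-LG/DSF and 0.615, 1.25 and 1.28 FPKM in Sham (log2 difference 0.74, SE 0.21, adjusted p = 0.0396 in limma). Casp8, an initiator caspase that can also cleave gasdermin D, had 1.85, 1.81 and 2.97 FPKM in C-β-LG/DSF and 0.874, 1.54 and 0.533 FPKM in Sham (log2 difference 0.901, SE 0.28, adjusted p = 0.0494 in limma). The Gbp2 call ended without any single library (adjusted p from 0.0537 to 0.104), that of Casp8 without any but Sham 2 (from 0.0610 to 0.167), and that of P2rx7 without C-β-LG/DSF 1, C-β-LG/DSF 2, Sham 2 or Sham 3 (from 0.0811 to 0.108).

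The remaining 9 tested members did not pass. Pycard (ENSMUSG00000030793.4, chromosome 7, 127989708 to 127993867), the adaptor ASC, had 4.18, 2.395 and 3.98 FPKM in C-β-LG/DSF and 0.763, 1.402 and 2.48 FPKM in Sham, and C-β-LG/DSF 2 was below Sham 3 (log2 difference 1.03, SE 0.32, adjusted p = 0.0528 in limma). Txnip, a thioredoxin inhibitor that binds NLRP3, had 11.7, 13.9 and 12.01 FPKM in C-β-LG/DSF and 9.86, 9.92 and 6.18 FPKM in Sham with no overlap (log2 difference 0.54, SE 0.18, adjusted p = 0.0624 in limma). Nlrp3 (ENSMUSG00000032691.14, chromosome 11, 59541568 to 59566956), the sensor, was close to the lower limit of the filter, at 0.546, 0.463 and 0.616 FPKM in C-β-LG/DSF and 0.107, 0.593 and 0.188 FPKM in Sham (log2 difference 0.43, SE 0.25, adjusted p = 0.248 in limma). The DNA sensor gene Aim2 overlapped between the groups (log2 difference 0.66, SE 0.29, adjusted p = 0.1403 in limma), as did Gbp5 (log2 difference 0.22, SE 0.24, adjusted p = 0.539 in limma) and the NLRP3 partner Nek7 (log2 difference 0.09, SE 0.11, adjusted p = 0.589 in limma). Il18 (ENSMUSG00000039217.13, chromosome 9, 50533087 to 50581840) had 15.8, 20.9 and 12.3 FPKM in C-β-LG/DSF and 16.3, 14.6 and 13.6 FPKM in Sham, with C-β-LG/DSF libraries both above and below all Sham libraries (log2 difference 0.11, SE 0.18, 95% interval -0.30 to 0.52, adjusted p = 0.678). The differences of Gsdme, a gasdermin cleaved by caspase-3, and of the channel gene Panx1 were -0.07 (SE 0.11) and -0.04 (SE 0.12). Il1b was below the filter, at 0.248, 1.08 and 0.215 FPKM in C-β-LG/DSF and 0.272, 0.0978 and 0.236 FPKM in Sham, where only C-β-LG/DSF 2 exceeded an FPKM of 1. The other untested members included Casp4, Nlrc4 and the Naip genes.

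**Figure D3:**
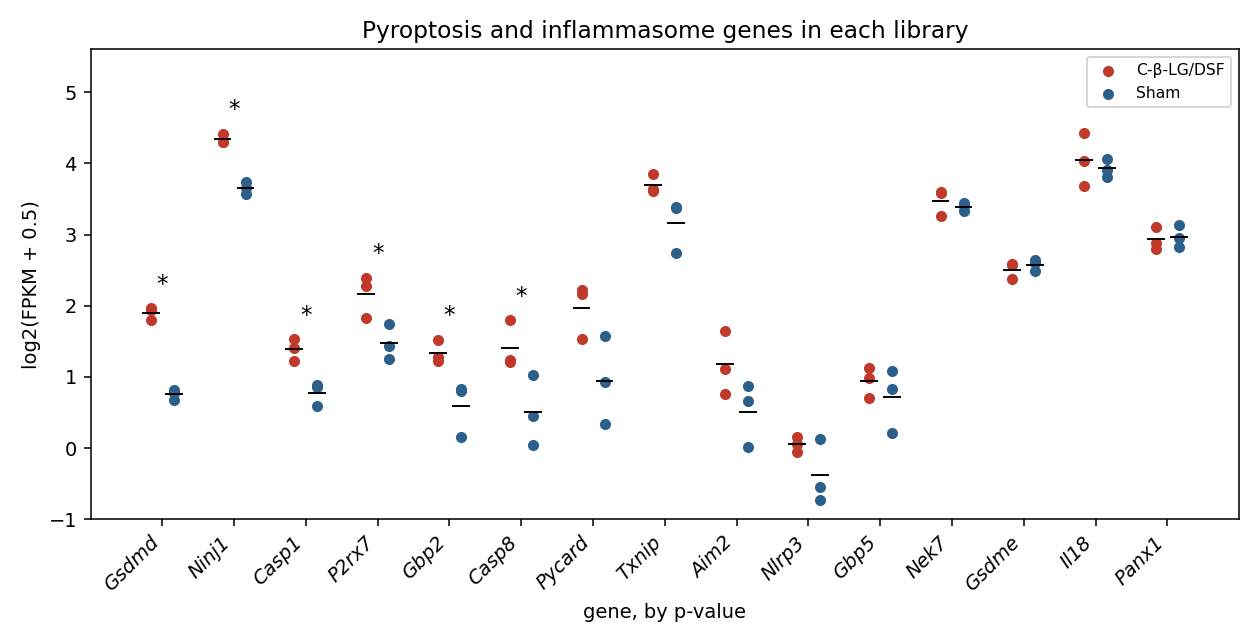
Levels of the 15 tested genes of pyroptosis and the inflammasome in each library, as log2(FPKM + 0.5), ordered by p-value. Red points are C-β-LG/DSF libraries, blue points Sham libraries, black lines group means (n = 3 each), and asterisks mark the 6 genes called higher at an adjusted p under 0.05. Gsdmd and Ninj1 show the widest gaps relative to their spread, while in Pycard and from Aim2 to Panx1 the groups overlap.

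In the list of death receptors and necroptosis 3 of 17 tested genes were called higher and 1 lower (median 0.22), set against 12.7% and 11.9% of all genes. Tnfrsf1a, the main TNF receptor, had 14.2, 11.7 and 14.2 FPKM in C-β-LG/DSF and 4.88, 6.07 and 4.59 FPKM in Sham (log2 difference 1.29, SE 0.13, adjusted p = 0.000987 in limma). Without C-β-LG/DSF 3, Sham 1 or Sham 3 it was the 1 gene of the list called higher. The 1 lower gene, the apoptotic initiator caspase gene Casp9 (log2 difference -0.28, SE 0.08), was not called once any single library was left out. The necroptosis genes Ripk3 and Mlkl did not pass the filter.

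Genes of reactive astrocytes were higher. Of 31 tested genes of reactive astrocytes, 23 were called higher and 0 lower (median 1.08), 4 of the 31 tested through C-β-LG/DSF only and 19 of the 23 not of that kind, and without C-β-LG/DSF 3 the count was 14. Serpina3n, a secreted protease inhibitor, had 47.7, 42.4 and 57.7 FPKM in C-β-LG/DSF and 11.1, 10.9 and 11.3 FPKM in Sham, a difference of 2.09 (SE 0.11, adjusted p = 0.000174) in limma. Fkbp5, a chaperone of the glucocorticoid receptor, had 21.04, 18.04 and 19.7 FPKM in C-β-LG/DSF and 9.24, 10.2 and 9.39 FPKM in Sham (log2 difference 0.99, SE 0.09). Of 22 genes of homeostatic astrocytes 5 were called higher and 0 lower (median 0.32). That count was 3 without C-β-LG/DSF 2, 2 without C-β-LG/DSF 3, Sham 1 or Sham 3, and 8 without Sham 2. The water channel gene Aqp4 had 33.8, 42.6 and 47.4 FPKM in C-β-LG/DSF and 11.4, 16.7 and 11.9 FPKM in Sham (log2 difference 1.601, SE 0.17, adjusted p = 0.00123 in limma). The gap junction gene Gja1 had 100.2, 118 and 119 FPKM in C-β-LG/DSF and 59.1, 77.5 and 57.1 FPKM in Sham (log2 difference 0.804, SE 0.13, adjusted p = 0.00483 in limma). Of the IL-6 family and STAT3 list 6 of 18 were called higher and 2, Cish (-0.74) and Junb (-1.55), lower (median 0.47), with 3 higher without Sham 1 or Sham 3 and 2 without C-β-LG/DSF 3, and 1 lower without C-β-LG/DSF 3 or Sham 3. Junb is also counted among the immediate early genes below. The summed FPKM of the list was lower, at 188 to 250 in C-β-LG/DSF and 293 to 323 in Sham. Osmr, the oncostatin M receptor, had 2.37, 1.63 and 2.28 FPKM in C-β-LG/DSF and 0.822, 0.891 and 0.707 FPKM in Sham (log2 difference 0.98, SE 0.17). Stat3, the transcription factor downstream of these receptors, had 18.9, 15.7 and 16.4 FPKM in C-β-LG/DSF and 11.5, 13.1 and 11.7 FPKM in Sham (log2 difference 0.47, SE 0.10).

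Matrix genes were higher. Of 16 collagen genes 9 were called higher and 0 lower (median 0.65). Col1a1, a fibrillar collagen, had 24.5, 12.3 and 12.99 FPKM in C-β-LG/DSF and 1.73, 4.56 and 1.77 FPKM in Sham (log2 difference 2.47, SE 0.37, adjusted p = 0.00373 in limma), with C-β-LG/DSF 1 highest. Col5a2, a collagen that limits fibril width, had 2.16, 1.93 and 1.75 FPKM in C-β-LG/DSF and 0.244, 0.503 and 0.235 FPKM in Sham (log2 difference 1.58, SE 0.18). Among proteoglycans and other scar proteins 9 of 21 were called higher and 2, the neuronal proteoglycan gene Cspg5 (-0.36) and the link protein gene Hapln4 (-0.47), lower (median 0.42), with 1 lower when any single library other than C-β-LG/DSF 1 was left out. Tnc, the glycoprotein tenascin C, had 3.33, 2.01 and 2.76 FPKM in C-β-LG/DSF and 0.434, 0.431 and 0.515 FPKM in Sham (log2 difference 1.72, SE 0.18, adjusted p = 0.00127 in limma). The proteoglycan gene Dcn had 33.2, 22.5 and 27.5 FPKM in C-β-LG/DSF and 6.58, 9.48 and 4.44 FPKM in Sham (log2 difference 1.99, SE 0.25, adjusted p = 0.00198 in limma). Of 19 metalloproteinase and inhibitor genes 11 were called higher and 0 lower (median 0.44). Of the 19, 2 were tested through C-β-LG/DSF only, and 9 of the 11 were not of that kind. The count of 11 became 7 without C-β-LG/DSF 1, 5 without C-β-LG/DSF 3 and 6 without Sham 1. The inhibitor gene Timp1 had 9.37, 3.29 and 9.79 FPKM in C-β-LG/DSF and 0.0993, 0.731 and 0.468 FPKM in Sham (log2 difference 3.02, SE 0.42, adjusted p = 0.00283 in limma). Timp2 had 169.6, 164 and 153 FPKM in C-β-LG/DSF and 79.1, 86.4 and 82.1 FPKM in Sham (log2 difference 0.97, SE 0.07, adjusted p = 0.000477 in limma).

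Beside the matrix genes, markers of fibroblasts and meninges moved. Of 14 such genes, several of them collagens also counted above, 8 were called higher and 0 lower (median 0.65), with 4 without C-β-LG/DSF 3, Sham 1 or Sham 3. Their summed FPKM was 1232 to 1456 in C-β-LG/DSF and 791 to 1371 in Sham, and their part in the matrix result was not tested. Endothelial markers were called higher in 3 of 22 cases and lower in 0 (median 0.07), a share near the 12.7% of all genes. There was 1 higher without C-β-LG/DSF 3 or Sham 3, and 1 lower without C-β-LG/DSF 1 or Sham 3. The angiogenic list contained 7 called higher and 1 lower of 18 (median 0.27), with 4 higher without C-β-LG/DSF 2 and 3 without C-β-LG/DSF 3. The neuropilins Nrp1 and Nrp2 are receptors of semaphorins and VEGF. Nrp1 had 9.79, 9.63 and 9.93 FPKM in C-β-LG/DSF and 2.49, 2.64 and 2.71 FPKM in Sham (log2 difference 1.72, SE 0.09, adjusted p = 0.000174 in limma). Nrp2 had 9.68, 10.4 and 9.97 FPKM in C-β-LG/DSF and 2.97, 3.48 and 2.72 FPKM in Sham (log2 difference 1.57, SE 0.11, adjusted p = 0.000439 in limma). Values were close together within each group in both genes. The 1 lower gene, named after its value was seen, was the vascular growth factor gene Vegfa, at 14.97, 19.9 and 17.7 FPKM in C-β-LG/DSF and 23.2, 25.9 and 25.01 FPKM in Sham (log2 difference -0.49, SE 0.11, adjusted p = 0.0166 in limma). No gene of the list was called lower without C-β-LG/DSF 3, Sham 2 or Sham 3, and 3 were without Sham 1.

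Cell cycle genes were higher in part, unevenly between libraries. Of 29 tested cell cycle genes 16 were called higher and 2 lower (median 0.97), 4 of the 29 tested through C-β-LG/DSF only and 12 of the 16 not of that kind. The count of 16 was 6 without C-β-LG/DSF 1, 4 without C-β-LG/DSF 3, 9 without Sham 1, 10 without Sham 2 and 9 without Sham 3. The 4 genes tested through C-β-LG/DSF only could not be tested in the fits without a C-β-LG/DSF library. Ube2c, which marks mitotic cyclins for degradation, had 8.19, 1.91 and 7.799 FPKM in C-β-LG/DSF and 0.185, 0.209 and 0.551 FPKM in Sham (log2 difference 2.803, SE 0.47, adjusted p = 0.00583 in limma). The replication helicase gene Mcm3 had 2.84, 1.55 and 2.33 FPKM in C-β-LG/DSF and 0.6598, 0.667 and 0.7002 FPKM in Sham (log2 difference 1.19, SE 0.20), and Mcm6, of the same complex, rose too (log2 difference 1.09, SE 0.20). C-β-LG/DSF 2 was the lowest of its group in all 3 genes, and the list averaged 1.32, 0.42 and 1.204 in C-β-LG/DSF 1, 2 and 3. The 2 lower members, named after their values were seen, were E2f1 (-0.88) and Ccne1 (-0.41), which act at entry into DNA synthesis. Neither was called without C-β-LG/DSF 3 or Sham 3, and 1 gene of the list was called lower without Sham 2. Of 17 p53 target genes 1, the cell cycle inhibitor gene Cdkn1a (0.63), was called higher and 6 lower (median -0.15). The Cdkn1a call ended without C-β-LG/DSF 1, C-β-LG/DSF 3, Sham 1 or Sham 2 (adjusted p from 0.0522 to 0.0974 in limma). The count of 6 was 3 without C-β-LG/DSF 2 or Sham 2, 1 without C-β-LG/DSF 3 and 2 without Sham 1 or Sham 3. The antiproliferative gene Btg2, which is also induced by neuronal activity, had 13.9, 10.2 and 10.5 FPKM in C-β-LG/DSF and 46.5, 26.3 and 21.7 FPKM in Sham (log2 difference -1.35, SE 0.26, adjusted p = 0.00980 in limma).

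Stress and detoxification genes changed in part. Metallothioneins and heat shock genes were called higher in 9 of 16 cases (median 0.50), with 5 without C-β-LG/DSF 3, 4 without Sham 1 and 3 without Sham 3. Mt2, which binds zinc and copper, had 572, 671 and 449.6 FPKM in C-β-LG/DSF and 193, 293 and 285 FPKM in Sham (log2 difference 1.14, SE 0.20, adjusted p = 0.00642 in limma). The small heat shock gene Hspb8 had 17.4, 15.3 and 16.6 FPKM in C-β-LG/DSF and 7.25, 7.39 and 5.02 FPKM in Sham (log2 difference 1.28, SE 0.15, adjusted p = 0.00151 in limma). In the list of Nrf2, glutathione and ferroptosis 9 of 24 were called higher and 1 lower (median 0.21), with 4 higher without C-β-LG/DSF 3 or Sham 1 and 5 without C-β-LG/DSF 2 or Sham 2. Slc7a11, the cystine importer, had 4.56, 5.79 and 6.23 FPKM in C-β-LG/DSF and 2.22, 3.43 and 2.07 FPKM in Sham (log2 difference 0.99, SE 0.19, adjusted p = 0.00971 in limma). Tfrc, the transferrin receptor, was lower, at 16.1, 18.1 and 13.3 FPKM in C-β-LG/DSF and 23.6, 23.4 and 22.99 FPKM in Sham (log2 difference -0.56, SE 0.11, adjusted p = 0.0115 in limma).

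Of 16 tested aldehyde dehydrogenase genes 4 were called higher and 0 lower (median 0.28). Aldh2 (ENSMUSG00000029455.14, chromosome 5, 121566027 to 121593824), the mitochondrial enzyme that oxidises acetaldehyde, had 81.5, 72.5 and 75.5 FPKM in C-β-LG/DSF and 61.1, 70.3 and 59.9 FPKM in Sham. The groups did not overlap, and the difference did not pass (log2 difference 0.26, SE 0.09, 95% interval 0.06 to 0.46, adjusted p = 0.0605). Aldh3b1 had 3.35, 3.097 and 3.96 FPKM in C-β-LG/DSF and 1.88, 1.73 and 1.96 FPKM in Sham (log2 difference 0.75, SE 0.13, adjusted p = 0.00638 in limma). Aldh1l2, a mitochondrial enzyme of folate metabolism, had 1.28, 1.25 and 1.44 FPKM in C-β-LG/DSF and 0.644, 0.469 and 0.389 FPKM in Sham (log2 difference 0.87, SE 0.16, adjusted p = 0.00889 in limma). Aldh1a2, which makes retinoic acid and is expressed in meninges, had 9.44, 7.65 and 8.49 FPKM in C-β-LG/DSF and 3.496, 5.77 and 3.09 FPKM in Sham (log2 difference 1.01, SE 0.21, adjusted p = 0.0119 in limma). The respiratory chain had 0 of 30 genes called higher and 1 lower by limma (median -0.05); the 1 was Cox6c (log2 difference -0.38, SE 0.10, adjusted p = 0.0344). Of the 6 fits leaving out 1 library, the call held only in that without C-β-LG/DSF 2.

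Neuronal genes were lower in part. Of 20 general neuron genes 10 were called lower (set against 11.9% of all genes) and 2 higher, with a median of -0.30. The count of 10 was 5 without C-β-LG/DSF 2 and 3 without C-β-LG/DSF 3 or Sham 3. Snap25, a fusion protein of synaptic vesicles, differed by -0.84 (SE 0.11, adjusted p = 0.00236) in limma. Rbfox3, which encodes the nuclear antigen NeuN, had 92.1, 68.02 and 73.2 FPKM in C-β-LG/DSF and 159, 157 and 146 FPKM in Sham (log2 difference -0.99, SE 0.11, adjusted p = 0.00157 in limma). The calcium sensor gene Vsnl1 had 164, 150.4 and 163 FPKM in C-β-LG/DSF and 298, 256 and 283 FPKM in Sham (log2 difference -0.81, SE 0.09, adjusted p = 0.00121 in limma). Gap43, a protein of growing axons, was higher, at 122, 139 and 128 FPKM in C-β-LG/DSF and 75.3, 65.9 and 75.5 FPKM in Sham (log2 difference 0.84, SE 0.09, adjusted p = 0.00105 in limma). The other higher gene, Uchl1, a deubiquitinase of neurons, differed by 0.28 (SE 0.08) and was named after its value was seen. The count of 2 was 1 when any single library other than C-β-LG/DSF 1 was left out.

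Excitatory neuron genes were called lower in 12 of 23 cases and higher in 1 (median -0.46). Rorb, a transcription factor of cortical layer 4 neurons, had 4.53, 4.25 and 4.56 FPKM in C-β-LG/DSF and 15.4, 13.9 and 12.6 FPKM in Sham, a difference of -1.54 (SE 0.10, adjusted p = 0.000294) in limma. The member that rose was Gria1, an AMPA receptor subunit abundant in the hippocampus, at 85.9, 84.2 and 79.9 FPKM in C-β-LG/DSF and 48.1, 49.1 and 48.1 FPKM in Sham (log2 difference 0.78, SE 0.06, adjusted p = 0.000624 in limma). Inhibitory neuron genes were called lower in 7 of 22 cases and higher in 1 (median -0.29). The neuropeptide gene Npy had 90.8, 63.5 and 56.3 FPKM in C-β-LG/DSF and 189, 240.4 and 189 FPKM in Sham (log2 difference -1.57, SE 0.18, adjusted p = 0.00155 in limma). Vip, which marks interneurons that inhibit other interneurons, had 24.7, 15.02 and 16.98 FPKM in C-β-LG/DSF and 40.7, 43.2 and 41.3 FPKM in Sham (log2 difference -1.15, SE 0.16, adjusted p = 0.00312 in limma). The 1 that rose was Calb2, a calcium-binding protein also listed as a marker of hippocampus and thalamus (13.8, 49.1 and 38.1 FPKM in C-β-LG/DSF and 7.19, 5.16 and 6.03 FPKM in Sham; log2 difference 2.196, SE 0.41).

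Genes of transmitter release and ion channels were lower in part as well. Among 25 genes of synaptic vesicles and release 12 were called lower and 1, Syn2 (0.43), higher (median -0.37), with 0 higher without Sham 3 and 7 lower without C-β-LG/DSF 3 or Sham 3. Stx1a, a membrane fusion protein, had 146, 90.5 and 94.98 FPKM in C-β-LG/DSF and 231, 271 and 250.2 FPKM in Sham (log2 difference -1.21, SE 0.18, adjusted p = 0.00330 in limma). The active zone gene Rims1 had 53.3, 42.4 and 38.3 FPKM in C-β-LG/DSF and 82.2, 105 and 86.5 FPKM in Sham (log2 difference -1.03, SE 0.14, adjusted p = 0.00260 in limma). Of 35 potassium channel genes 18 were called lower and 2 higher (median -0.35). Kcnh7 had 2.87, 2.45 and 3.19 FPKM in C-β-LG/DSF and 7.36, 6.88 and 8.08 FPKM in Sham (log2 difference -1.25, SE 0.12, adjusted p = 0.000974 in limma). Kcnq5, which carries part of the M-current, had 11.7, 8.44 and 9.02 FPKM in C-β-LG/DSF and 20.6, 21.5 and 20.5 FPKM in Sham (log2 difference -1.08, SE 0.12, adjusted p = 0.00139 in limma). Of the 2 higher ones, Kcnd3, an A-type channel, had 16.01, 18.04 and 16.7 FPKM in C-β-LG/DSF and 9.77, 9.28 and 9.202 FPKM in Sham (log2 difference 0.81, SE 0.08, adjusted p = 0.000987 in limma). The other, Kcnn2 (log2 difference 0.31, SE 0.09), was named after its value was seen, and the count of 2 was 1 without C-β-LG/DSF 3, Sham 1 or Sham 2. Sodium and calcium channel genes were called lower in 11 of 26 cases and higher in 3 (median -0.31). Cacna1a, the pore subunit of P/Q-type channels, had 25.9, 26.6 and 23.7 FPKM in C-β-LG/DSF and 40.9, 43.6 and 43.3 FPKM in Sham (log2 difference -0.74, SE 0.07, adjusted p = 0.000987 in limma). The 3 higher ones, named after their values were seen, were Scn3a (0.63), Scn3b (0.76) and Cacna1h (0.45), with 1 higher without C-β-LG/DSF 2, C-β-LG/DSF 3 or Sham 1 and 2 without Sham 2 or Sham 3.

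**Figure D4:**
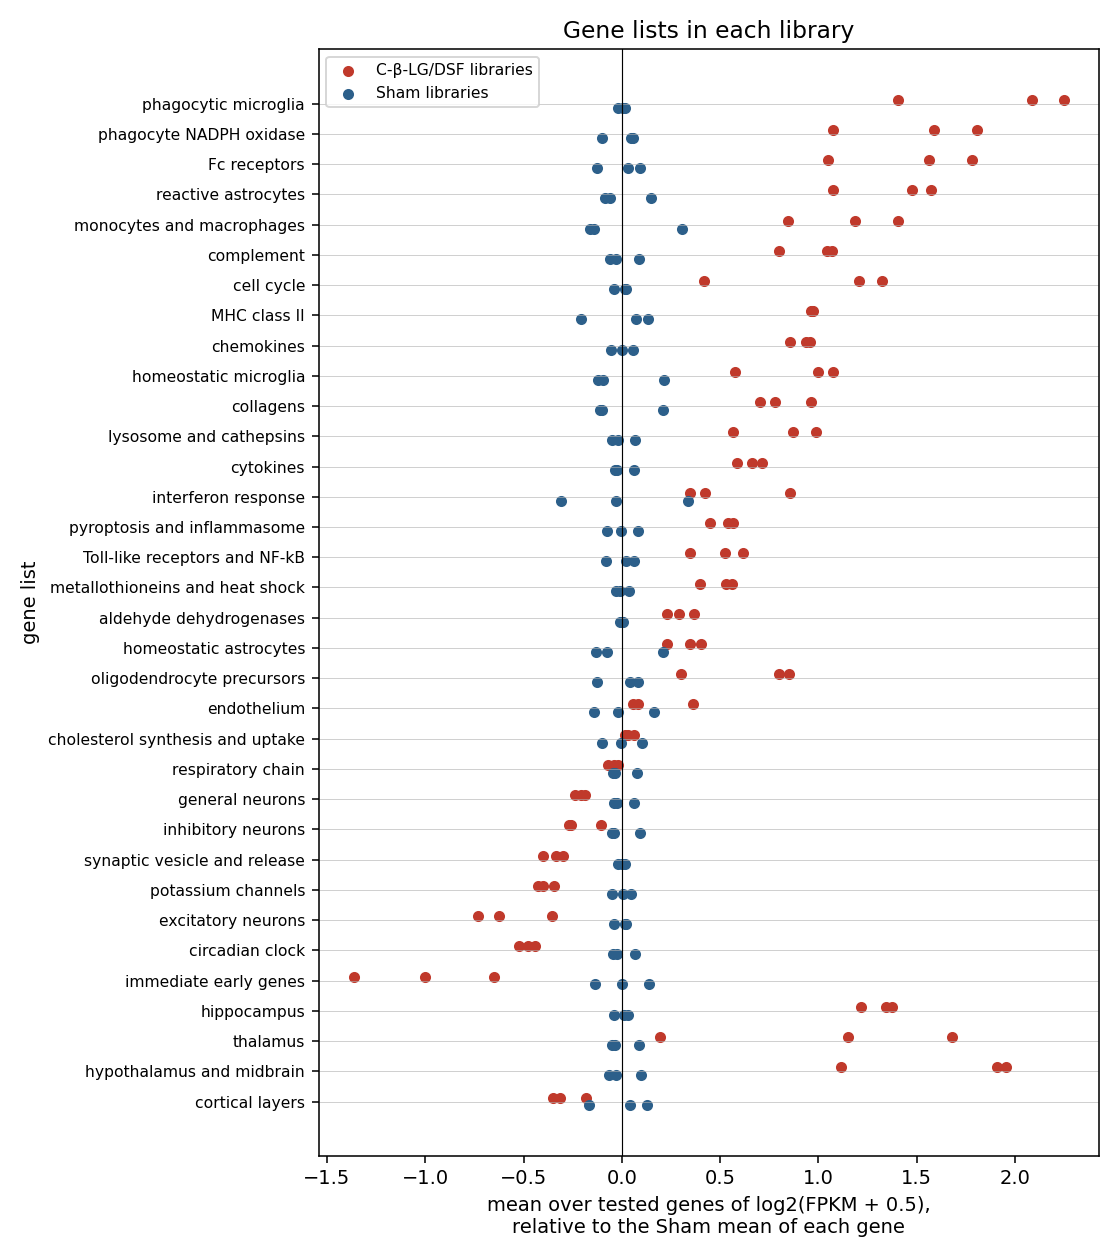
Each point is 1 library, and the horizontal axis is the mean over the tested genes of a list of log2(FPKM + 0.5), as the distance from the mean of the 3 Sham libraries. Red points are C-β-LG/DSF libraries and blue points Sham libraries, and the rows are 34 of the 60 gene lists. Among the rows shown, phagocytic microglia reach farthest to the right (1.41 to 2.25) and immediate early genes farthest to the left (-1.36 to -0.65). The neutrophil list, which is not shown, averaged 2.70 in C-β-LG/DSF 2. Thalamic markers spread from 0.19 to 1.68 among the C-β-LG/DSF libraries.

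Immediate early genes, which neurons switch on within minutes of activity without new protein, were lower. Of 24 tested genes 17 were called lower and 1 higher (median -1.24), and 17 were called lower in each of the 6 fits that left out 1 library. Fos, a subunit of the AP-1 transcription factor, had 18.1, 9.99 and 12.9 FPKM in C-β-LG/DSF and 55.6, 43.2 and 49.5 FPKM in Sham, a difference of -1.85 (SE 0.20, adjusted p = 0.00126) in limma. Dusp1, a phosphatase that switches off MAP kinases, had 23.4, 16.3 and 16.4 FPKM in C-β-LG/DSF and 77.7, 58.5 and 61.4 FPKM in Sham (log2 difference -1.796, SE 0.16, adjusted p = 0.000842 in limma). Ier2 had 9.896, 6.61 and 8.16 FPKM in C-β-LG/DSF and 32.9, 26.2 and 25.4 FPKM in Sham (log2 difference -1.72, SE 0.16, adjusted p = 0.000843 in limma). In Fos, Dusp1 and Ier2, as in Nr4a1 above, C-β-LG/DSF 2 was the lowest library and Sham 1 the highest. Relative to Sham the list averaged -0.65, -1.36 and -1.002 in C-β-LG/DSF 1, 2 and 3. The gene called higher was Atf3, a transcription factor induced by cell stress, at 1.96, 1.38 and 2.205 FPKM in C-β-LG/DSF and 0.447, 0.545 and 0.522 FPKM in Sham (log2 difference 1.21, SE 0.18), named after its value was seen.

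The clock genes also fell in part. Of 17 genes of the circadian clock 10 were called lower and 0 higher (median -0.43). Ciart, a repressor of the clock, had 10.6, 10.4 and 12.4 FPKM in C-β-LG/DSF and 37.5, 35.2 and 38.2 FPKM in Sham, a difference of -1.69 (SE 0.09, adjusted p = 0.000174) in limma. Per1, a repressor that neuronal activity also induces, is counted in both lists and had 36.5, 31.6 and 32.3 FPKM in C-β-LG/DSF and 68.7, 67.5 and 70.6 FPKM in Sham (log2 difference -1.03, SE 0.08, adjusted p = 0.000458 in limma). Dbp and Hlf encode related output factors of the clock. Dbp had 65.1, 60.01 and 65.1 FPKM in C-β-LG/DSF and 105, 117 and 121 FPKM in Sham (log2 difference -0.84, SE 0.08, adjusted p = 0.000877 in limma). Hlf had 38.1, 29.7 and 34.8 FPKM in C-β-LG/DSF and 73.03, 68.4 and 65.5 FPKM in Sham (log2 difference -1.01, SE 0.10, adjusted p = 0.00102 in limma). The libraries of each group were close together in all 4 genes. The sources used here give no hour of sampling. Arntl, the positive partner of the loop, was lower as well (8.58, 6.66 and 7.72 FPKM in C-β-LG/DSF and 11.97, 10.7 and 10.02 FPKM in Sham; log2 difference -0.48, SE 0.12, adjusted p = 0.0215 in limma), named after its value was seen.

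Promoters of these genes are shown because 2 DNA motifs are known to link them to activity and to the clock. The core of the cAMP response element, TGACGT, is bound by CREB, and the E-box CACGTG by the CLOCK and BMAL1 dimer. Each line is 300 bases of GRCm38.p6 (250 bases before to 50 after the transcription start, from RefSeq) read 5′ to 3′ on the strand of the gene, with matches to either motif on either strand in capitals. They are Fos at chr12:85473640-85473939 (+ strand), Dusp1 at chr17:26508423-26508722 (- strand), Nr4a1 at chr15:101266596-101266895 (+ strand) and Ciart at chr3:95882179-95882478 (- strand).
Fos: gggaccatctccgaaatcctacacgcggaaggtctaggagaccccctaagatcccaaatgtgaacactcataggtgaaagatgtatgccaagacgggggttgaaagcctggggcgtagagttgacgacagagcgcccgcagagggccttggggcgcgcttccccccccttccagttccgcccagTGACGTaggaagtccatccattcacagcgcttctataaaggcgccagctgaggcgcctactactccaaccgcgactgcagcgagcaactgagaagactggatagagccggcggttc
Dusp1: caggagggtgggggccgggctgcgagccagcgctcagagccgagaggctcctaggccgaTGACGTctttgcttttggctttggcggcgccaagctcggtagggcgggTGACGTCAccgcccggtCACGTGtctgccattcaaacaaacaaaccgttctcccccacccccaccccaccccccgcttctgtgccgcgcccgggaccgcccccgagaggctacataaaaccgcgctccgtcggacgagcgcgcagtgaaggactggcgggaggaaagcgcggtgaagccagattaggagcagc
Nr4a1: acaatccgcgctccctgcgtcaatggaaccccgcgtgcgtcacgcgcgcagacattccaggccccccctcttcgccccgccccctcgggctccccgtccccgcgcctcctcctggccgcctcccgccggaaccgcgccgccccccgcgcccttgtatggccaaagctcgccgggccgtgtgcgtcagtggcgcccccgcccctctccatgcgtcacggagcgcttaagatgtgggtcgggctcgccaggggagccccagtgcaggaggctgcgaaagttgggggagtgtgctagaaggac
Ciart: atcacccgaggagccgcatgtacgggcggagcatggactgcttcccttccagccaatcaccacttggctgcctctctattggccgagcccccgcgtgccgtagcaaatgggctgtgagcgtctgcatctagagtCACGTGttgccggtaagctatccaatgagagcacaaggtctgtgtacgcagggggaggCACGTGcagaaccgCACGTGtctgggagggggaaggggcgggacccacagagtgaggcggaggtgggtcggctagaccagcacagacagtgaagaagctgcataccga
The Fos window held 1 match to TGACGT, and the Dusp1 window held 3, of which 2 overlap on opposite strands in TGACGTCA, beside 1 match to CACGTG. Ciart had 3 matches to CACGTG, and Nr4a1, which also fell, had no match to either. RefSeq promoters were found for 19 of the 24 immediate early genes, and 12 of these (63.2%) held TGACGT, set against 8.37% of the 27025 genes with a promoter of the same length (7.51% of all 32851 promoters). Among the 13 called lower with a promoter there were 9 (69.2%). The E-box was found in 5 of 14 clock genes (35.7%) and in 3 of the 9 called lower (33.3%), set against 8.09% of genes (7.15% of all promoters). A match describes the letters of the window and not binding. The genes were listed for their known link to activity or the clock, so shares above those of all genes could come from that choice. Whether a motif went with the decrease was not tested.

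**Figure D5:**
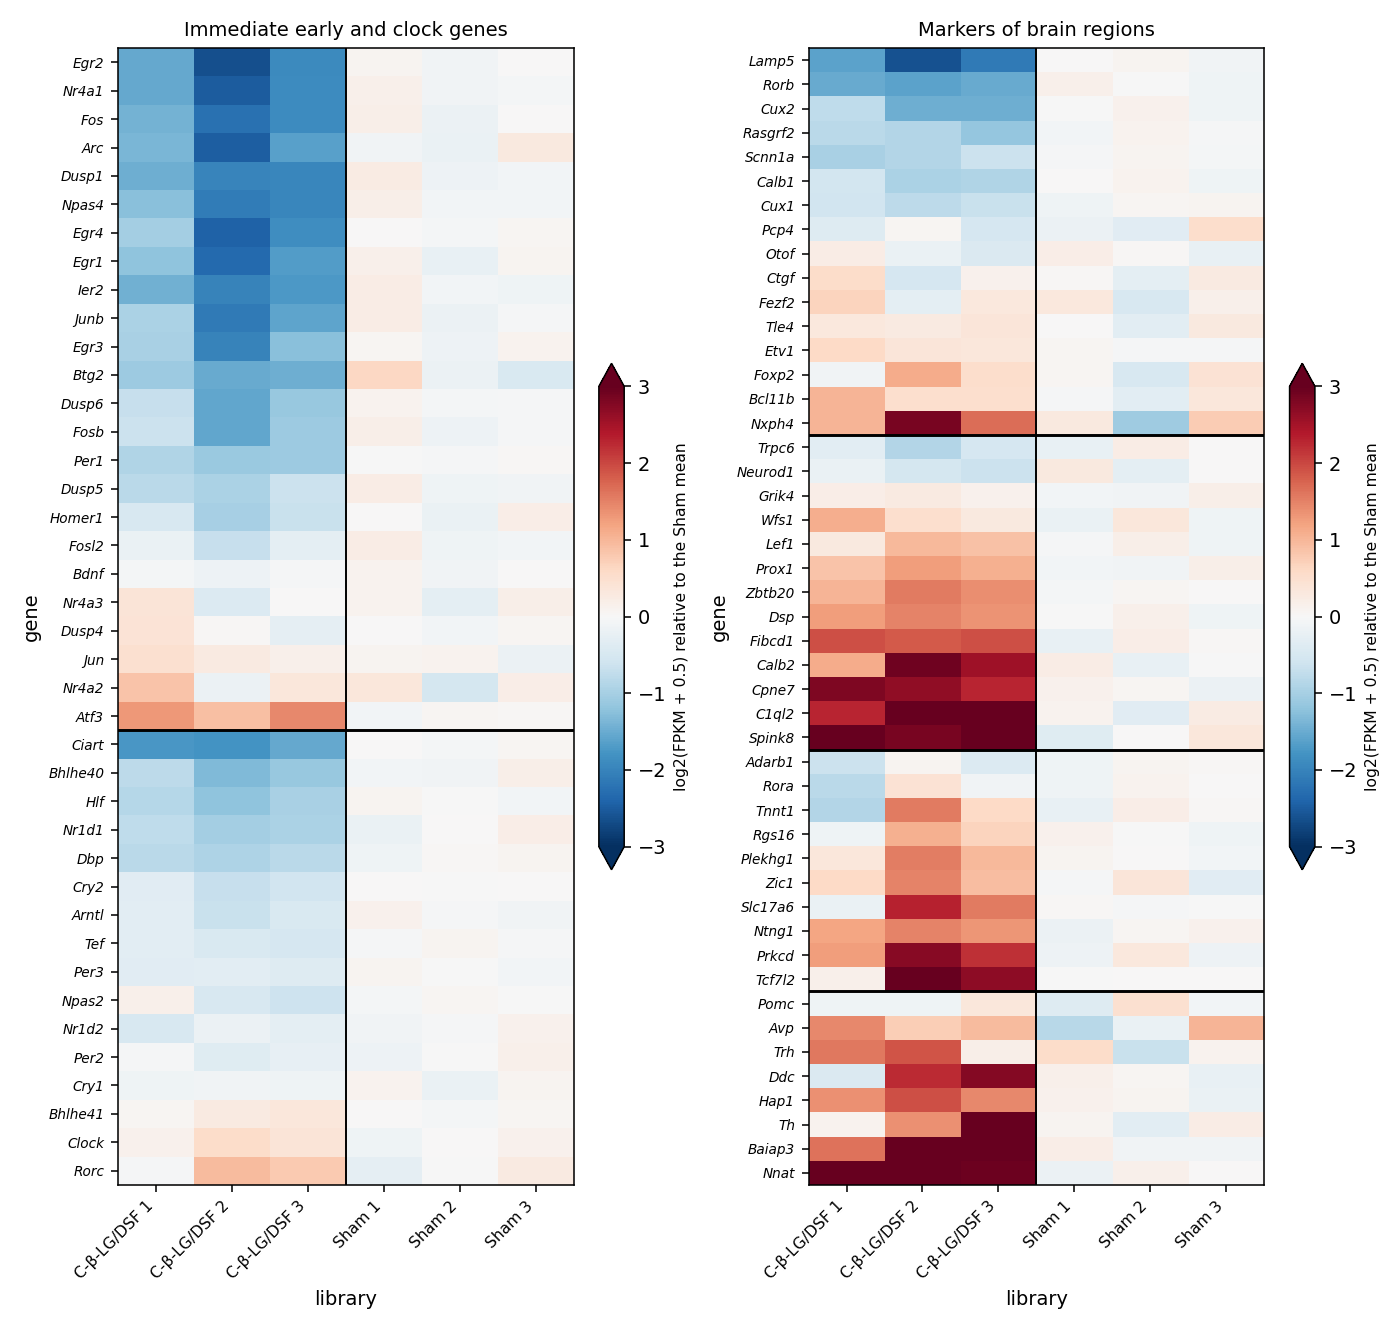
Rows are genes, columns are libraries and colours are log2(FPKM + 0.5) minus the mean of the 3 Sham libraries (red higher, blue lower, saturated at 3 and -3). The left panel holds immediate early genes above the line and clock genes below it, and the right panel markers of cortical layers, hippocampus, thalamus, and hypothalamus and midbrain from top to bottom, with a gene of several lists shown once. Fos is blue in all 3 C-β-LG/DSF columns, and Prkcd is palest in C-β-LG/DSF 1 among them.

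Markers of brain regions differed between the groups beside the neuronal genes. Of 16 tested markers of cortical layers 7 were called lower and 3 higher (median -0.21), and their summed FPKM was 487 to 606 in C-β-LG/DSF and 790 to 1007 in Sham. The 7, which include Rorb and Lamp5 described above, mark upper and middle layers. Cux1 had 21.998, 18.97 and 20.4 FPKM in C-β-LG/DSF and 29.9, 34.2 and 34.9 FPKM in Sham (log2 difference -0.68, SE 0.09). Rasgrf2 had 42.7, 40.2 and 33.004 FPKM in C-β-LG/DSF and 70.9, 80.9 and 72.7 FPKM in Sham (log2 difference -0.95, SE 0.11). The 3 higher ones, named after their values were seen, mark deep layers and were Etv1 (0.44), Bcl11b (0.67) and Nxph4 (1.85). The count of 3 was 1 without C-β-LG/DSF 2, C-β-LG/DSF 3, Sham 1 or Sham 2 and 2 without C-β-LG/DSF 1 or Sham 3, while that of 7 was 7 in all 6 such fits. Of 13 hippocampal markers 9 were called higher and 0 lower (median 1.32), 8 of the 9 not tested through C-β-LG/DSF alone, with sums of 213 to 245 FPKM in C-β-LG/DSF and 80.1 to 90.8 FPKM in Sham. With 1 library left out 7 to 10 of these markers were called higher, and 2 were called lower without C-β-LG/DSF 1. Cpne7 had 87.3, 79.2 and 61.5 FPKM in C-β-LG/DSF and 13.3, 12.7 and 10.7 FPKM in Sham (log2 difference 2.58, SE 0.14, adjusted p = 0.000174 in limma). Fibcd1, a marker of the CA1 field, had 15.8, 14.8 and 15.9 FPKM in C-β-LG/DSF and 3.18, 4.44 and 3.88 FPKM in Sham (log2 difference 1.897, SE 0.12, adjusted p = 0.000266 in limma).

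Thalamic and hypothalamic markers were higher in part, and here the C-β-LG/DSF libraries differed among themselves. Of 12 thalamic markers 6 were called higher and 0 lower (median 0.98). The count was 10 without C-β-LG/DSF 1 and 3 without C-β-LG/DSF 3, Sham 1 or Sham 3. Their summed FPKM was 101, 266 and 184 in C-β-LG/DSF 1, 2 and 3 and 95.8 to 107 in Sham, so C-β-LG/DSF 1 lay within the Sham range. Relative to Sham the list averaged 0.19, 1.68 and 1.15 in C-β-LG/DSF 1, 2 and 3. Prkcd, a kinase gene of thalamic relay neurons, had 8.31, 24.1 and 16.3 FPKM in C-β-LG/DSF and 2.81, 4.08 and 2.86 FPKM in Sham (log2 difference 2.05, SE 0.34, adjusted p = 0.00539 in limma). Ntng1, a membrane-bound netrin, had 14.2, 17.5 and 15.6 FPKM in C-β-LG/DSF and 5.21, 6.19 and 6.56 FPKM in Sham (log2 difference 1.33, SE 0.12, adjusted p = 0.000740 in limma). The list of hypothalamus and midbrain had 3 of 8 tested genes called higher (median 1.55), with 5 without C-β-LG/DSF 1, and sums of 401 to 519 FPKM in C-β-LG/DSF and 66.4 to 75.01 FPKM in Sham. Nnat, an imprinted gene active in immature and hypothalamic neurons, had 321, 358 and 245 FPKM in C-β-LG/DSF and 28.03, 35.2 and 32.1 FPKM in Sham (log2 difference 3.25, SE 0.15, adjusted p = 0.000174 in limma). Nnat alone made up most of the summed FPKM of the list in each C-β-LG/DSF library. The listed gene Slc6a3 did not pass the filter, at 0.0720, 0.743 and 19.8 FPKM in C-β-LG/DSF and 0.0197, 0 and 0 FPKM in Sham. Baiap3, a regulator of dense-core vesicles, had 3.89, 18.4 and 11.8 FPKM in C-β-LG/DSF and 1.13, 0.806 and 0.817 FPKM in Sham (log2 difference 2.84, SE 0.47, adjusted p = 0.00529 in limma). Striatal markers had 4 of 12 called lower and 0 higher (median -0.03), such as the prodynorphin gene Pdyn (8.92, 7.76 and 6.82 FPKM in C-β-LG/DSF and 17.8, 18.97 and 19.3 FPKM in Sham; log2 difference -1.21, SE 0.11). The part of these regional markers in the neuronal, immediate early and clock results was not tested.

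Genes of oligodendrocyte precursors were higher in part. Of 16 precursor genes 10 were called higher and 0 lower (median 0.49), with 3 without C-β-LG/DSF 2 or C-β-LG/DSF 3, 5 without Sham 1 or Sham 3 and 4 without Sham 2. C1ql1 had 9.44, 8.25 and 10.7 FPKM in C-β-LG/DSF and 4.85, 5.09 and 4.52 FPKM in Sham (log2 difference 0.898, SE 0.11, adjusted p = 0.00213 in limma). Gpr17, a receptor of cells about to myelinate, had 37.98, 30.1 and 39.2 FPKM in C-β-LG/DSF and 23.9, 19.2 and 21.8 FPKM in Sham (log2 difference 0.71, SE 0.12, adjusted p = 0.00659 in limma). Of 20 genes of mature oligodendrocytes 2, Trf (1.05) and Sox10 (0.56), were called higher and 0 lower (median 0.49), set against 12.7% and 11.9% of all genes. That count was 11 without C-β-LG/DSF 1, 1 without C-β-LG/DSF 2 and 0 without C-β-LG/DSF 3, Sham 1 or Sham 2. The list averaged -0.10, 0.77 and 0.74 in C-β-LG/DSF 1, 2 and 3 and 0.07, -0.45 and 0.38 in Sham 1, 2 and 3.

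Signs of other tissue in the pieces were also measured. Of 5 tested hemoglobin and red cell genes 1, Alas2 (1.21), was called higher, and of the 6 fits leaving out 1 library its call held only in that without C-β-LG/DSF 1. Their summed FPKM was 408 to 528 in C-β-LG/DSF and 246 to 391 in Sham. Hbb-bs, an adult globin gene, had 70.3, 136 and 102 FPKM in C-β-LG/DSF and 15.8, 72.6 and 44.9 FPKM in Sham and overlapped between the groups (log2 difference 1.403, SE 0.50, adjusted p = 0.0804). Of 8 tested choroid plexus markers 2, Sostdc1 and Kl, were called higher and 1, Enpp2, lower (median 0.14). Set beside this, 12.7% of all genes were called higher and 11.9% lower. Of the 2 higher, 1 was not tested through C-β-LG/DSF alone, and 1 marker was called higher without C-β-LG/DSF 1 or C-β-LG/DSF 3. All listed choroid plexus markers together summed to 111 to 134 FPKM in C-β-LG/DSF and 115 to 149 FPKM in Sham. Motile cilia genes had 7 of 13 called higher and 1, Spag6 (-1.08), lower (median 0.66), 5 of the 13 tested through C-β-LG/DSF only and 3 of the 7 not of that kind, with 1 to 4 higher when any single library was left out. Foxj1, the master regulator of motile cilia, had 4.19, 5.29 and 4.06 FPKM in C-β-LG/DSF and 1.34, 1.21 and 1.13 FPKM in Sham (log2 difference 1.53, SE 0.14, adjusted p = 0.000844 in limma).

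Beside these values stand those of the injured tissue without C-β-LG/DSF. In the fit of all 9 libraries limma called 0 of 14292 genes (0.0%) between C-β-LG/DSF and TBI, with 1693 at an unadjusted p under 0.05 and a smallest adjusted p of 0.361. The comparisons of C-β-LG/DSF with Sham and with TBI share the C-β-LG/DSF libraries. Ninj1 was at 19.3, 19.1 and 20.8 FPKM in C-β-LG/DSF and 32.96, 23.3 and 22.9 FPKM in TBI (C-β-LG/DSF minus TBI -0.39, 95% interval -0.69 to -0.09, adjusted p = 0.394). In the same limma fit Gsdmd differed from TBI by -0.68 (95% interval -1.17 to -0.19, adjusted p = 0.394). Pycard differed by -1.75 (95% interval -2.82 to -0.67, adjusted p = 0.394) and Casp1 by -0.10 (95% interval -0.79 to 0.60, adjusted p = 0.906). Fos was at 18.1, 9.99 and 12.9 FPKM in C-β-LG/DSF and 12.9, 6.94 and 28.03 FPKM in TBI (-0.04, 95% interval -0.97 to 0.88, adjusted p = 0.972), and Ciart at 10.6, 10.4 and 12.4 FPKM in C-β-LG/DSF and 11.7, 14.01 and 16.02 FPKM in TBI (-0.31, 95% interval -0.58 to -0.03, adjusted p = 0.3995). Cwc22 had 25.2, 3.97 and 3.48 FPKM in C-β-LG/DSF and 93.9, 105 and 56.3 FPKM in TBI, with no overlap, a difference of -3.43 (95% interval -4.84 to -2.02) that did not pass (adjusted p = 0.394). Aldh2 had 81.5, 72.5 and 75.5 FPKM in C-β-LG/DSF and 87.3, 70.2 and 78.6 FPKM in TBI (-0.04, 95% interval -0.27 to 0.20, adjusted p = 0.891).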

How the data were processed

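RNA was extracted with Trizol and libraries were made with an Illumina stranded total RNA kit, per the labels' protocols. The submitters' processing notes name HISAT2 2.1.0 and Cufflinks 2.2.1, and give neither build nor annotation (not given in the sources used here). The authors deposited FPKM values per gene with an interval around each value, and counts of reads were not used here. Of 22482 identifiers 22452 were in GENCODE M21 (GRCm38) and 15241 had identical positions once starts were moved by 1 base, so coordinates are the deposited ones with that shift and are read as GRCm38. Symbols turned into dates (26) were restored, and values of 10 genes with a failed Cufflinks status in at least 1 library, Mbp and Map2 among them, were kept.

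Differences were fitted with limma 3.58.1 (R 4.3.3) on log2(FPKM + 0.5) with a mean trend and moderated variances, over the 3 C-β-LG/DSF and 3 Sham libraries, which leaves 4 residual degrees of freedom. The Benjamini-Hochberg adjustment covered all 13884 genes, and the threshold was 0.05. Fold changes on this scale understate the change of low genes. An exact two-sided permutation test of 3 against 3 cannot go below p = 0.1 and was not used. The script was tested on simulated data. The depth per library is unknown, so precision is given by the spread over 3 libraries and the authors' intervals.

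Named genes were the 10 of largest increase and 10 of largest decrease among genes called, with a mean of at least 1 FPKM in the higher group and no overlap, leaving out predicted genes; all tested members of the pyroptosis list, and Aldh2; and the 4 members of smallest p in each other list described. Members named because few of a list went against the rest, and genes below the filter, were chosen after their values were seen. A few genes that the rule names are not reported here. The members, the 60 gene lists and these rules were chosen with earlier results of these data known. Promoters came from RefSeq (GRCm38.p6). Alternatives were other pseudocounts (1 and 0.1), filters and scalings, array weights, a fit of all 9 libraries, the replicate number as a block and each library left out.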

Additional observations from a re-analysis of the deposited data

How the results depend on the processing

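Under 15 alternatives, 153 of the 211 called genes named under the rule kept their call wherever they were tested. The call was lost at least once in 58, and 0 of the 211 changed direction. An alternative in which a gene did not pass the filter counted as neither kept nor lost. Lcn2 and Ccl3, for example, were not tested when a C-β-LG/DSF library was left out. The 3412 calls were 1619 to 3560 with 1 library left out (795 to 1704 higher, 824 to 1856 lower, 518 to 753 of at least 2-fold), 1927 (919 higher, 1008 lower) in the fit of all 9 libraries, 3184 (47.2% higher) under quantile normalization, 3645 (68.1% higher) with equal totals and 4686 with array weights, and the cause was not tested. The pyroptosis genes called higher were 2 under quantile normalization and in the fit of all 9 libraries and 3 to 4 with 1 library left out. With 1 library left out, cytokine genes called higher numbered 4 to 5 and chemokine genes 3 to 8. Of the genes that were not called, 7 changed sign at least once. Under quantile normalization these were Gbp5 (-0.051), Mmp9 (-0.091), Lck (-0.16) and Cox7a2 (0.016), with equal totals Gsdme (0.016) and Panx1 (0.051), and with array weights Il18 (-0.032). With 1 library left out the range was -0.026 to 0.41 for Gbp5, -0.076 to 0.29 for Il18, -0.12 to 0.045 for Panx1 and -0.0996 to 0.36 for Mmp9. Same-numbered libraries of the groups did not deviate together (r from -0.058 to -0.008), and with the replicate number as a block 2605 genes were called, 2490 of them among the 3412. The FPKM values carry no read numbers, so depth sets no stated limit for genes near the filter.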

Other observations

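Some enzyme and signalling groups were not described above, with C-β-LG/DSF set against Sham as before. Of 14 tested genes of prostaglandin and leukotriene synthesis 6 were called higher and 0 lower in limma (median 0.32), with 3 without C-β-LG/DSF 3, Sham 1 or Sham 3. Alox5ap, which presents arachidonic acid to 5-lipoxygenase, had 6.59, 6.18 and 8.65 FPKM in C-β-LG/DSF and 1.88, 2.53 and 3.04 FPKM in Sham (log2 difference 1.36, SE 0.18, adjusted p = 0.00250 in limma). Ltc4s, the synthase of leukotriene C4, had 11.9, 6.89 and 14.8 FPKM in C-β-LG/DSF and 2.05, 4.19 and 3.04 FPKM in Sham (log2 difference 1.68, SE 0.30, adjusted p = 0.00725 in limma). The inducible cyclooxygenase gene Ptgs2, also an immediate early gene and named after its value was seen, was not called (log2 difference -0.46, adjusted p = 0.111 in limma).

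Of 21 glycolysis genes 4 were called higher and 2 lower (median 0.04), set against 12.7% and 11.9% of all genes. Hk2, an inducible hexokinase, had 3.34, 1.65 and 2.87 FPKM in C-β-LG/DSF and 0.687, 0.652 and 0.729 FPKM in Sham (log2 difference 1.35, SE 0.22, adjusted p = 0.00530 in limma). Slc16a3, an exporter of lactate, had 4.54, 3.56 and 6.21 FPKM in C-β-LG/DSF and 1.21, 1.61 and 1.91 FPKM in Sham (log2 difference 1.33, SE 0.21, adjusted p = 0.00460 in limma). The 2 lower ones, named after their values were seen, were the neuronal enolase gene Eno2 (-0.31) and Pfkm (-0.27), and neither was called once any library but C-β-LG/DSF 1 was left out. Of 11 tested genes of leukocyte adhesion 4 were called higher and 0 lower (median 0.41). Icam1, an adhesion molecule that binds leukocyte integrins, had 4.72, 3.799 and 2.91 FPKM in C-β-LG/DSF and 1.06, 1.25 and 0.896 FPKM in Sham (log2 difference 1.44, SE 0.18, adjusted p = 0.00213 in limma). Itgb2, the integrin chain that binds it, had 7.75, 5.52 and 7.89 FPKM in C-β-LG/DSF and 1.65, 2.08 and 1.46 FPKM in Sham (log2 difference 1.75, SE 0.17, adjusted p = 0.000974 in limma).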
